A study of Rattus norvegicus with 64 samples.

Results

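The expression of 10 genes of antioxidant defence was followed through the hippocampus and cortex of ApoE4 and ApoE3 rats, named for forms of the lipid carrier apolipoprotein E, that received the anthracycline doxorubicin or phosphate-buffered saline (PBS). The genes, chosen by symbol, were the superoxide dismutases Sod1 and Sod2, the peroxide-removing enzymes Cat, Gpx1 and Gpx4, the transcription factor gene Nfe2l2, and Hmox1, Gclc, Gclm and Txnrd1, which the factor is known to induce. They are 10 of 32552 gene rows in the count tables, each symbol matched 1 row, and all 10 passed the filter on low counts in every comparison. The data are bulk RNA sequencing counts from 64 libraries, a hippocampal and a cortical one from each of 32 rats. There were 4 groups per region: ApoE4 rats given doxorubicin, ApoE4 rats given PBS, ApoE3 rats given doxorubicin and ApoE3 rats given PBS. Each group held 8 rats, 4 female and 4 male, which makes 8 groups of 8 libraries. Doxorubicin was given at 2 mg/kg per week for 4 weeks from the age of 5 weeks, and the brains were taken 5 to 6 weeks after the last dose. Strain, route of dosing and how the ApoE4 and ApoE3 alleles were made are not given in the sources used here.

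Library totals ran from 10.8 to 20.4 M counts (median library 14.4 M), of which the spike-in sequences took 0.932% to 2.44%. The marker genes of hippocampal neurons averaged 5.60 to 6.43 log2 counts-per-million (CPM) in hippocampal libraries and 3.43 to 4.34 in cortical ones, and those of cortical neurons 4.12 to 4.90 and 5.92 to 6.32, so all libraries matched their region. A row that the files name as an ApoE3 donor sequence held 1230 to 2410 CPM in ApoE4 rats and 1280 to 3140 CPM in ApoE3 rats, and the rat Apoe row held 3.15 to 7.65 CPM and 3.11 to 8.75 CPM. The donor row was thus read in both genotypes and does not check the genotype labels. Rat numbers ran in blocks by genotype, sex and treatment, so a batch that follows those blocks cannot be told apart from them. Choroid plexus markers, averaged over 8 genes, spread from -0.71 to 8.78 log2 CPM across hippocampal libraries and passed 4 in 8 of them and in 3 cortical ones.

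Cells meet superoxide and peroxides with a chain of enzymes. Superoxide dismutases, Sod1 mainly in the cytosol and Sod2 in mitochondria, turn superoxide into hydrogen peroxide, which catalase (Cat) and glutathione peroxidase (Gpx1) remove, while Gpx4 reduces peroxidised membrane lipids and restrains ferroptosis. Nfe2l2 encodes Nrf2, which the adaptor Keap1 holds back by marking it for degradation; under oxidative or electrophilic stress Nrf2 is stabilised, pairs with a small Maf protein and binds antioxidant response elements near its target genes. Because that switch acts on the protein, the amount of Nfe2l2 messenger is not a measure of Nrf2 activity. In the brain, target genes of Nrf2 are known to be active mainly in astrocytes. Anthracyclines such as doxorubicin are known to generate superoxide by redox cycling.

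The antioxidant response element has the core TGACNNNGC. It was searched on both strands of the RefSeq promoter windows of the GRCr8 rat assembly, which run from 250 bases before to 50 bases after a transcription start. Promoters were listed for 9 of the 10 genes, all but Hmox1, and 4 of the 9 held the core: Sod2, Gclm, Nfe2l2 and Txnrd1. Over all 27457 genes with a promoter in the table, 13.1% held it. The 4 matches are shown because the core is the sequence that Nrf2 is known to bind. They are written 5′ to 3′ on the strand of the gene, with the core in capitals, reading as its reverse complement GCNNNGTCA where the match lies on the other strand.
Sod2, chr1:50050185-50050213, minus strand: ggcgctgccgGCAGGGTCAgcgcctagct
Gclm, chr2:213031953-213031981, plus strand: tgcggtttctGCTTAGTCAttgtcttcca
Nfe2l2, chr3:81028950-81028971, minus strand: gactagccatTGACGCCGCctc
Txnrd1, chr7:22755964-22755992, minus strand: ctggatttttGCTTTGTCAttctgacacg

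The first base of the core lies 35 bases before the start of Sod2, 172 before that of Gclm and 78 before that of Txnrd1, and at base 39 after the start of Nfe2l2. Txnrd1 has 2 listed starts, of which 1 holds the core. The 250 bases before that start of Txnrd1 are printed because Txnrd1 is the gene whose level differed most steadily between genotypes.
Txnrd1 upstream, chr7:22755905-22756154, minus strand: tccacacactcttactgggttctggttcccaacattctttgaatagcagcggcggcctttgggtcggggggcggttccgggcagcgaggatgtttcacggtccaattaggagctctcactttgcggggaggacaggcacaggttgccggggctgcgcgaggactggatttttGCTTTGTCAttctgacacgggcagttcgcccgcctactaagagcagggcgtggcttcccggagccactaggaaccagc

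A match is a run of letters, not a measured binding site. In the same windows the core was present for 7 of 24 further Nrf2 target genes and for 4 of 26 further antioxidant genes. It was present for 1 of 8 partners, repressors and relatives of Nrf2.

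Every one of the 10 genes was read in every library. Levels are given as CPM scaled by the trimmed mean of M-values (TMM) method over the 64 libraries, and since transcript length enters CPM, levels are compared only within a gene. The read counts behind a value ran from 32 to 122 for Hmox1, the most thinly covered gene, and from 163 upwards for the other 9. Group medians of the 2 dismutases stayed within narrow bands, 132 to 151 CPM for Sod1 and 151 to 176 CPM for Sod2. Those of Gclc ran from 57.1 to 64.9 CPM and those of Gpx4 from 63.9 to 71.4 CPM. Wider bands were seen for Cat (54.1 to 70.6 CPM), Txnrd1 (63.7 to 81.8 CPM), Gpx1 (27.9 to 40.1 CPM) and Hmox1 (4.03 to 5.81 CPM). The group medians of Nfe2l2 ran from 22.4 to 26.9 CPM and those of Gclm from 16.5 to 20.9 CPM. The spread between rats of 1 group was smallest for Txnrd1 in the hippocampus of ApoE3 rats given doxorubicin, with a coefficient of variation of 1.86%, and largest for Gpx1 in the hippocampus of ApoE4 rats given PBS, at 45.3%.

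**Figure D1:**
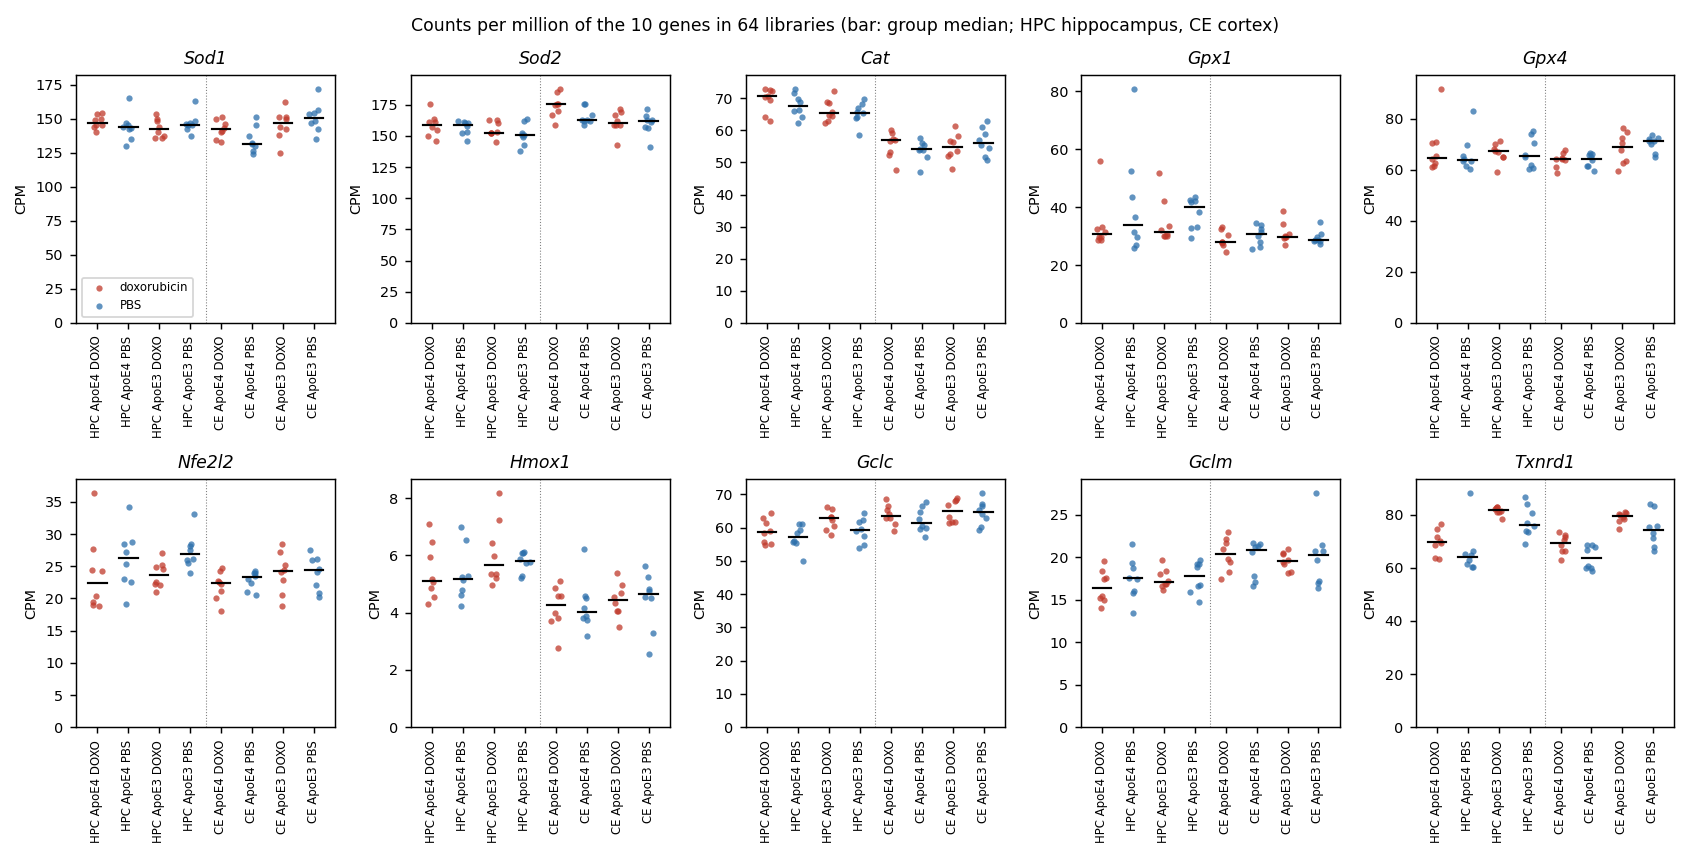
CPM (TMM-scaled, linear axis from 0) of the 10 genes in 64 libraries, 1 point per library, by region, genotype and treatment, with doxorubicin in red, PBS in blue and a black bar at the group median. Cat sits higher in the 4 hippocampal groups, Txnrd1 sits lower in the ApoE4 groups, and single hippocampal libraries of Gpx1 reach up to 81.0 CPM.

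The comparison of doxorubicin with PBS asks whether the drug left a change in these genes 5 to 6 weeks later. None of the 10 genes passed the test in either region or genotype. With edgeR's quasi-likelihood F-test and Benjamini-Hochberg adjustment over all genes tested, 0 of 10 were called at an adjusted p of 0.05 in each of the 4 comparisons. The background share called was 0% in each, out of 14775 to 14899 genes tested. At an unadjusted p under 0.05 the counts were 0 of 10 in the hippocampus of ApoE4 rats, 1 (Nfe2l2) in the hippocampus of ApoE3 rats, 1 (Txnrd1) in the cortex of ApoE4 rats and 0 in the cortex of ApoE3 rats. Over all genes, 7.38%, 10.3%, 8.82% and 9.25% lay under it in those comparisons in the same order. DESeq2 called 1, 145, 37 and 77 genes there (0.00672%, 0.973%, 0.249% and 0.521%), with 0 of the 10 among them. It gave no adjusted p for Gpx1, Nfe2l2, Hmox1 and Gclm in ApoE4 cortex, so these 4 could not be called there. In the authors' deposited table the called genes numbered 1, 149, 28 and 8 (0.00664%, 0.991%, 0.187% and 0.0536%), and the 10 genes had 0 calls. That table has no adjusted p for Nfe2l2, Hmox1 and Gclm in ApoE4 cortex. Median log2 differences over the 10 genes were 0.024, 0.008, 0.027 and 0.003, beside -0.007, 0.001, 0.000 and 0.000 over all genes.

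Nfe2l2 had the smallest p of any of the 10 under the drug. In the hippocampus of ApoE3 rats it ran from 21.0 to 27.0 CPM (median 23.6) in doxorubicin rats, against 23.9 to 33.1 CPM (median 26.9) in PBS rats. The groups overlapped, with 7 of 8 doxorubicin rats under the PBS median. The log2 difference was -0.21 (SE 0.07, 95% interval -0.35 to -0.07), with an unadjusted p of 0.00671 and an adjusted p of 0.252 by edgeR. The authors' deposited table gives -0.20 and an adjusted p of 0.146. In ApoE4 hippocampus the doxorubicin rats ran from 18.8 to 36.4 CPM (median 22.4) and the PBS rats from 19.1 to 34.2 CPM (median 26.3), with a log2 difference of -0.14 (SE 0.14). The highest doxorubicin value was that of rat 10, whose library had a choroid plexus score of 6.24 and a meningeal score of 7.18, each a mean log2 CPM over 8 markers. The highest PBS value was that of rat 7, with a choroid plexus score of 8.78. Without the library of rat 10, which stands apart in meningeal markers, the difference was -0.24 (SE 0.12, adjusted p = 0.392 by edgeR), and without all libraries with a choroid plexus score over 4 it was -0.17 (SE 0.12, adjusted p = 0.635). In cortex the differences were -0.07 (SE 0.06) in ApoE4 rats and 0.00 (SE 0.08) in ApoE3 rats. In the ApoE3 hippocampus, meningeal and vascular markers were also lower in the doxorubicin libraries. The 8 meningeal markers, of which 0 were called by edgeR, summed to 122 to 521 CPM in doxorubicin libraries and 140 to 1020 CPM in PBS libraries, with a mean score difference of -1.18 on the log2 scale (exact permutation p = 0.0148, adjusted p = 0.159 over 44 marker tests). The 6 endothelial markers, also with 0 called, summed to 219 to 295 CPM in doxorubicin libraries and 229 to 457 CPM in PBS libraries, with a score difference of -0.45 (exact permutation p = 0.00466, adjusted p = 0.103). Microglial markers differed by -0.18 (exact permutation p = 0.00451, adjusted p = 0.103), mural cell markers by -0.90 (p = 0.00824, adjusted p = 0.121) and oligodendrocyte markers by 0.23 (p = 0.0180, adjusted p = 0.159). No meningeal or endothelial marker was at 0. The part of these 5 lists in the Nfe2l2 value was not tested, and in bulk tissue fewer cells of a type and less RNA per cell cannot be told apart.

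Txnrd1, the cytosolic thioredoxin reductase and an Nrf2 target, had a positive difference in all 4 comparisons, none of which passed the test. Gclc, another of the targets, and the dismutase Sod2 did so too. In ApoE4 cortex Txnrd1 ran from 63.0 to 73.5 CPM (median 69.4) in doxorubicin rats and from 58.9 to 68.7 CPM (median 63.7) in PBS rats, and 7 of 8 doxorubicin rats lay above the PBS median. The log2 difference was 0.10 (SE 0.04, 95% interval 0.01 to 0.19; unadjusted p = 0.0341, adjusted p = 0.527 by edgeR). In ApoE3 cortex it was 0.08 (SE 0.05), in ApoE4 hippocampus 0.07 (SE 0.07) and in ApoE3 hippocampus 0.07 (SE 0.04). In both ApoE3 comparisons 8 of 8 doxorubicin rats lay above the PBS median while the ranges overlapped. The doxorubicin rats of ApoE3 hippocampus, at 78.3 to 82.9 CPM, lay inside the PBS range of 69.1 to 86.7 CPM.

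Gclc and Gclm encode the catalytic and the modifier subunit of glutamate-cysteine ligase, the rate-limiting enzyme of glutathione synthesis. Gclc had log2 differences of 0.04, 0.07, 0.02 and 0.02 in ApoE4 hippocampus, ApoE3 hippocampus, ApoE4 cortex and ApoE3 cortex, with SEs of 0.04 to 0.05. Over these 4 comparisons its 95% intervals ran no lower than -0.08 and no higher than 0.16. Gclm had -0.09, -0.01, 0.04 and -0.03 in the same order (SE 0.06 to 0.09). Hmox1, the heme oxygenase whose induction is a common sign of oxidative stress, gave 0.02, 0.07, -0.04 and 0.00. Its SEs of 0.10 to 0.14 were wider at this depth, so its intervals leave room for differences from -0.33 to 0.30. In ApoE3 hippocampus Hmox1 ran from 4.98 to 8.18 CPM (median 5.66) in doxorubicin rats and from 5.20 to 6.10 CPM (median 5.81) in PBS rats, and 4 of 8 doxorubicin rats lay above the PBS median.

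The enzymes that act on superoxide and peroxides gave intervals of similar width, other than Gpx1. For Sod1 the 4 log2 differences were 0.03, -0.04, 0.07 and -0.05 and for Sod2 they were 0.02, 0.03, 0.06 and 0.02, in the order given above. All 95% intervals of Sod1 lay between -0.14 and 0.15, and those of Sod2 between -0.07 and 0.13. Cat gave 0.03, 0.02, 0.03 and -0.04 (SE 0.04 to 0.06). Gpx4 gave 0.04, 0.00, -0.01 and -0.03 (SE 0.04 to 0.09). In ApoE4 hippocampus its highest PBS value, 83.1 CPM, was that of rat 7, whose choroid plexus score was 8.78. The highest doxorubicin value there, 91.9 CPM, was that of rat 31, whose score was 2.4. Without the libraries with a score over 4, which drops rat 7 and keeps rat 31, the Gpx4 difference there was 0.17 (SE 0.08, adjusted p = 0.520 by edgeR). Sod1 in ApoE4 cortex ran from 133 to 151 CPM (median 142) in doxorubicin rats and from 124 to 151 CPM (median 132) in PBS rats, and 8 of 8 doxorubicin rats lay above the PBS median (log2 difference 0.07, adjusted p = 0.638 by edgeR).

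Gpx1 had the largest point estimate and the widest interval. In ApoE4 hippocampus it ran from 28.5 to 55.8 CPM (median 30.6) in doxorubicin rats and from 25.9 to 81.0 CPM (median 34.0) in PBS rats. The log2 difference was -0.29 (SE 0.21, 95% interval -0.73 to 0.15; adjusted p = 0.745 by edgeR). The highest libraries were also those with choroid plexus signal. PBS rat 7, at 81.0 CPM, had a choroid plexus score of 8.78, and PBS rat 26 a score of 7.56. Doxorubicin rat 10, at 55.8 CPM, had a score of 6.24 and also a meningeal score of 7.18. Doxorubicin rat 13, with a choroid plexus score of 4.44, held at most 33.3 CPM. Over all hippocampal libraries, the 8 with a score over 4 held 32.4 to 81.0 CPM of Gpx1 (median 47.2) and the other 24 held 25.9 to 43.5 CPM (median 31.1). In cortex, 3 such libraries held 30.0 to 38.8 CPM and the other 29 held 24.5 to 34.6 CPM. After subtraction of group means, the Pearson correlation of Gpx1 with the choroid plexus score was 0.83 in hippocampus and 0.35 in cortex. With the meningeal score it was 0.62 and 0.53. The 8 choroid plexus markers summed to 11.2 to 2370 CPM in doxorubicin libraries of ApoE4 hippocampus and to 15.1 to 13000 CPM in PBS libraries. Of these markers Sostdc1 was at 0 in 1 hippocampal and 3 cortical libraries and Kcnj13 at 0 in 1 hippocampal library. Without the libraries over 4, a limit set after the data were seen, the Gpx1 difference was -0.08 (SE 0.11, adjusted p = 0.833 by edgeR) in ApoE4 hippocampus. In ApoE3 hippocampus it was -0.26 (SE 0.09, adjusted p = 0.392), against -0.12 (SE 0.11, adjusted p = 0.792) with all libraries. The count of called genes among the 10 stayed at 0 in all 4 comparisons without the libraries over 4. In ApoE3 hippocampus with all libraries, doxorubicin minus PBS gave a meningeal score difference of -1.18. The part of meningeal tissue in the Gpx1 differences was not tested.

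**Figure D2:**
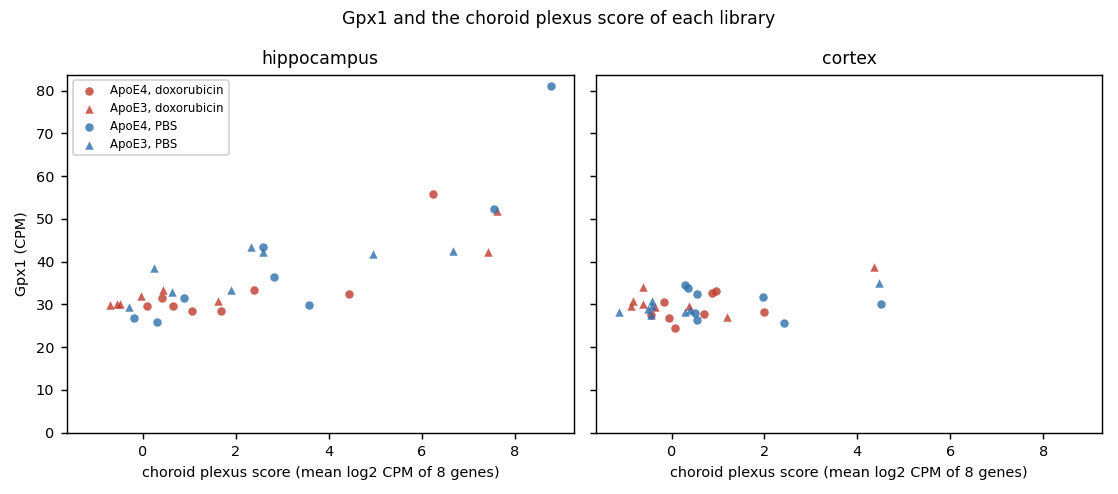
Gpx1 in CPM (linear axis from 0) against the choroid plexus score of the same library, the mean log2 CPM of 8 marker genes, for 32 hippocampal libraries on the left and 32 cortical ones on the right, with colour for treatment and shape for genotype. Every Gpx1 value above 43.5 CPM belongs to a hippocampal library with a score over 4.

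**Figure D3:**
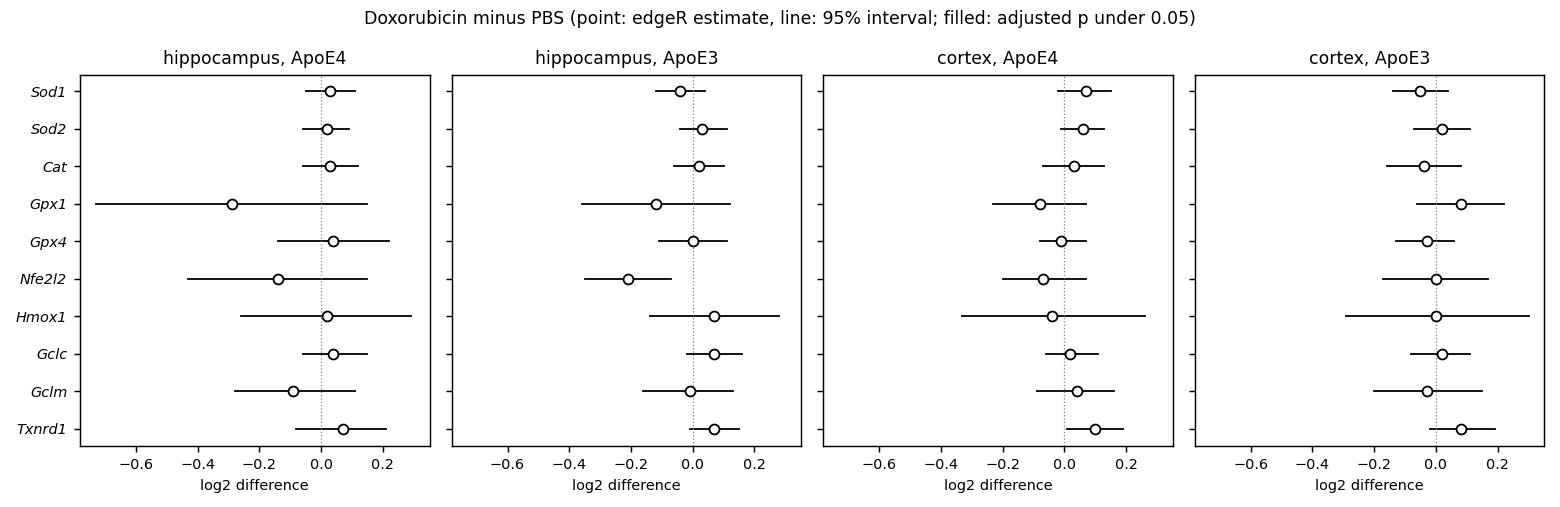
Log2 difference of doxorubicin minus PBS from edgeR for the 10 genes (point) with its 95% interval (line), in 4 panels of 16 libraries each. No point is filled, since no adjusted p was under 0.05, and 2 intervals leave out 0, those of Nfe2l2 in ApoE3 hippocampus and Txnrd1 in ApoE4 cortex.

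Beyond the 10 genes, 63 further genes of the pathway matched a row out of 68 listed. They were 9 partners, repressors and relatives of Nrf2, 24 more of its targets and 30 other antioxidant genes, not all of them enzymes. Of these, 62 or 63 were tested per comparison and 0 were called in any of the 4. The 3 of smallest p did not pass in any comparison. In ApoE3 cortex they were Sesn3, a stress-induced sestrin (log2 difference 0.20, SE 0.04, adjusted p = 0.102 by edgeR), the mitochondrial glutaredoxin Glrx2 (-0.19, SE 0.05, adjusted p = 0.243) and the export pump Abcc1 (0.18, SE 0.06, adjusted p = 0.341). In ApoE3 hippocampus they were the cystine transporter Slc7a11 (-0.31, SE 0.11), the mitochondrial peroxiredoxin Prdx3 (-0.12, SE 0.05) and Glrx2 (-0.10, SE 0.04), with adjusted p of 0.293 to 0.434. In ApoE4 hippocampus they were Bach2, of a family of repressors that compete with Nrf2 (0.29, SE 0.10), the related factor Nfe2l1 (0.07, SE 0.03) and Txnrd3 (0.15, SE 0.07), with adjusted p of 0.641 to 0.646. In ApoE4 cortex they were Gsta1 (-0.13, SE 0.05), the extracellular dismutase Sod3 (-0.19, SE 0.07) and Gpx8 (-0.22, SE 0.09), with adjusted p of 0.409 to 0.461.

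Whether the drug's effect differed between genotypes, regions or sexes was tested with interaction terms. In the 8 tests 0 of the 10 genes were called by edgeR or by DESeq2. DESeq2 gave no adjusted p for Hmox1 in the test of the sexes in ApoE4 cortex. Between genotypes DESeq2 called 2 of 15416 genes in hippocampus and 0 of 15315 in cortex. Between regions it called 0 of 15432 in ApoE4 rats and 126 of 15428 in ApoE3 rats. For the genotypes (ApoE4 minus ApoE3 effect) the background called by edgeR was 0% in hippocampus and 0% in cortex. At an unadjusted p under 0.05 there were 0 of the 10 genes in either region, beside 8.18% and 5.45% of all genes. The smallest p was that of Sod1 in cortex, where the effects differed by 0.11 on the log2 scale (SE 0.06, adjusted p = 0.879 by edgeR). For Txnrd1 the effects differed by 0.00 (SE 0.08) in hippocampus and 0.01 (SE 0.06) in cortex. For the regions (hippocampal minus cortical effect) the background was 0% in ApoE4 rats and 0% in ApoE3 rats, with 0 of the 10 genes under an unadjusted 0.05 in either, beside 3.59% and 8.00% of all genes. Nfe2l2 in ApoE3 rats had the smallest p, with a difference of -0.21 (SE 0.11, adjusted p = 0.661 by edgeR). That fit did not pair the 2 libraries of a rat. With the rat as a block, edgeR called 0 of 15432 genes in ApoE4 and 9 of 15428 in ApoE3 rats, with 0 of the 10 among them.

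For the sexes (female minus male effect) the background called by edgeR was 0% in ApoE4 hippocampus, 0% in ApoE3 hippocampus and 0.00652% in ApoE4 cortex. In these 3 tests 0 of the 10 genes lay under an unadjusted 0.05, beside 3.53%, 4.50% and 5.84% of all genes. ApoE3 cortex stood apart over all genes, with 2.34% called (0.675% higher and 1.67% lower in the female effect) and 19.2% under an unadjusted 0.05. Of the 10 genes 1 lay under it there, Gpx4, whose effect differed by -0.19 (SE 0.08, unadjusted p = 0.0293, adjusted p = 0.203). Gclc differed by -0.17 (SE 0.08, adjusted p = 0.268). Hmox1 in ApoE4 hippocampus had the largest size of the 10, -0.49 (SE 0.24, adjusted p = 1), on counts of 32 to 122 reads per library over the series. DESeq2 called 1 of 15390 genes in ApoE4 hippocampus and 0 of 15462 in ApoE3 hippocampus for the sexes. In cortex it called 21 of 15335 in ApoE4 and 763 of 15267 in ApoE3 rats. These tests use the same libraries as the 4 comparisons of doxorubicin with PBS.

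Of the 63 further pathway genes 0 were called in any of the 8 interaction tests. The nearest were those of the sexes in ApoE3 cortex: the selenoprotein gene Selenot (-0.28, SE 0.08, adjusted p = 0.0526 by edgeR), Slc7a11 (0.59, SE 0.17, adjusted p = 0.0643) and the export pump Abcc4 (0.57, SE 0.17, adjusted p = 0.0696). In the other sex tests the 3 of smallest p were Gstm1, Sesn1 and Mafg in ApoE4 hippocampus, Msrb1, Nqo1 and Selenow in ApoE3 hippocampus, and Txnrd3, Ephx1 and Me1 in ApoE4 cortex, with adjusted p from 0.646 upwards. Between genotypes they were Nfe2l1, Maff and Gsta1 in hippocampus and Glrx2, Sqstm1 and Gsr in cortex, with adjusted p of at least 0.5. Between regions they were Sesn3, Nfe2l1 and Gstm1 in ApoE4 rats (adjusted p = 1 each) and Slc7a11, Prdx2 and Cul3 in ApoE3 rats (adjusted p from 0.333 upwards).

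The comparison of ApoE4 with ApoE3 rats, made within region and treatment, gave the steadiest difference among the 10 genes. Txnrd1 was lower in ApoE4 rats by 13.6% to 14.6% in all 4 comparisons and passed the test in 3 of them. In cortex of PBS rats, Gpx4 and Sod1 were also lower in ApoE4 rats. By edgeR, 1 of the 10 genes was called in the hippocampus of doxorubicin rats, beside a background of 3.23% of all genes. In the hippocampus of PBS rats 0 were called, beside 2.83%. In cortex 1 was called in doxorubicin rats, beside 14.1%, and 3 in PBS rats, beside 16.2%. The 4 comparisons are not independent of each other, since both regions come from the same rats. Medians over the 10 genes were -0.029, -0.018, -0.073 and -0.065 on the log2 scale in hippocampus of doxorubicin rats, hippocampus of PBS rats, cortex of doxorubicin rats and cortex of PBS rats, beside 0.001, 0.001, -0.004 and -0.007 over all genes.

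Txnrd1 in the hippocampus of doxorubicin rats ran from 63.2 to 76.4 CPM (median 69.6) in ApoE4 rats and from 78.3 to 82.9 CPM (median 81.8) in ApoE3 rats. The ranges did not overlap, though the share of all genes without overlap was not counted, here or in cortex. ApoE4 rats had a log2 difference of -0.23 (SE 0.04, 95% interval -0.31 to -0.15; adjusted p = 0.00181 by edgeR). In the cortex of doxorubicin rats Txnrd1 ran from 63.0 to 73.5 CPM (median 69.4) in ApoE4 rats and from 74.6 to 81.0 CPM (median 79.4) in ApoE3 rats, again without overlap. There the difference was -0.21 (SE 0.04, 95% interval -0.29 to -0.14; adjusted p = 0.000412 by edgeR).

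In PBS rats the ranges of Txnrd1 did overlap. In cortex they were 58.9 to 68.7 CPM (median 63.7) in ApoE4 rats and 66.2 to 84.1 CPM (median 74.3) in ApoE3 rats, and 8 of 8 ApoE4 rats lay under the ApoE3 median. The log2 difference was -0.22 (SE 0.05, adjusted p = 0.00576 by edgeR). In hippocampus they were 60.3 to 88.2 CPM (median 64.0) in ApoE4 rats and 69.1 to 86.7 CPM (median 76.3) in ApoE3 rats. A single ApoE4 library, that of rat 4 at 88.2 CPM, lay above the ApoE3 range, and the next highest ApoE4 library held 66.5 CPM. With it the difference was -0.23 (SE 0.07, adjusted p = 0.0811 by edgeR), and without it -0.29 with an adjusted p of 0.00218. DESeq2 on the same 16 libraries gave an adjusted p of 0.0354, and an edgeR fit of all 32 hippocampal libraries gave 0.0162. The cortical library of the same rat 4 held 66.6 CPM. Leaving out any 1 of the 16 libraries kept the call in the other 3 comparisons, with adjusted p of at most 0.0154. In the RefSeq annotation Eid3 and 3 long noncoding RNA genes overlap Txnrd1, and since the strand setting of the counting is not stated, reads from them could not be told apart from those of Txnrd1.

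Gpx4 in the cortex of PBS rats ran from 59.5 to 66.6 CPM (median 64.4) in ApoE4 rats and from 65.1 to 73.8 CPM (median 71.4) in ApoE3 rats. The ranges overlapped at their edges, and 8 of 8 ApoE4 rats lay under the ApoE3 median. Gpx4 differed by -0.14 on the log2 scale (SE 0.04, adjusted p = 0.0213 by edgeR; 0.0566 with no filter on low counts). In the cortex of doxorubicin rats it was -0.11 (SE 0.05, adjusted p = 0.110). Hippocampal Gpx4 differed by 0.04 (SE 0.07) in doxorubicin rats and -0.01 (SE 0.07) in PBS rats. The annotation lists 4 pseudogenes named after Gpx4, so its counts are uncertain to the extent that reads were shared with them.

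Sod1 in the cortex of PBS rats ran from 124 to 151 CPM (median 132) in ApoE4 rats and from 135 to 172 CPM (median 151) in ApoE3 rats, and 7 of 8 ApoE4 rats lay under the ApoE3 median. This gave a log2 difference of -0.17 (SE 0.05, adjusted p = 0.0275 by edgeR). The call ended on leaving out any of 5 libraries, those of ApoE4 rats 1, 4 and 22 and ApoE3 rats 41 and 45, with adjusted p of 0.0501 to 0.0679 and differences of -0.16 to -0.14. In the cortex of doxorubicin rats the difference was -0.05 (SE 0.04, adjusted p = 0.453). In hippocampus it was 0.05 (SE 0.03) in doxorubicin rats and -0.03 (SE 0.04) in PBS rats.

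The remaining 7 genes were not called between genotypes. Nfe2l2 itself differed by 0.00 (SE 0.11), -0.07 (SE 0.10), -0.14 (SE 0.08) and -0.07 (SE 0.07) in hippocampus of doxorubicin rats, hippocampus of PBS rats, cortex of doxorubicin rats and cortex of PBS rats. Sod2 in the cortex of doxorubicin rats had the smallest adjusted p of the 7, at 159 to 188 CPM (median 176) in ApoE4 rats and 143 to 172 CPM (median 161) in ApoE3 rats (log2 difference 0.10, SE 0.04, adjusted p = 0.0898 by edgeR).

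Cell type markers also differed between the genotypes, most often in the cortex of PBS rats. Of 8 meningeal markers 6 were called higher in ApoE4 rats by edgeR, and their summed level ran from 175 to 473 CPM in ApoE4 rats and from 145 to 258 CPM in ApoE3 rats. Of 6 endothelial markers 5 were called higher, with sums of 299 to 407 CPM and 243 to 317 CPM. Of 8 astrocyte markers 3 were called higher, with sums of 3810 to 4640 CPM and 3420 to 4720 CPM. In the cortex of doxorubicin rats the counts were 0, 0 and 1, and in the hippocampus of doxorubicin rats 1, 0 and 1. Over all genes edgeR called 2400 of 14825 in PBS cortex, in either direction. It called 2099 of 14877 in cortex and 481 of 14887 in hippocampus of doxorubicin rats. In the hippocampus of PBS rats the scores of the 3 lists differed by -0.35, -0.2 and 0.06. Their adjusted exact permutation p were 0.775, 0.534 and 0.614. No marker of these 3 lists was at 0 in any library. The part of these markers in the Txnrd1, Gpx4 and Sod1 differences of PBS cortex was not tested.

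By score, with exact permutation p adjusted over the 44 marker tests of the genotypes, 5 lists differed in the cortex of PBS rats. The differences of ApoE4 minus ApoE3 rats were 0.81 for meningeal (adjusted p = 0.0256), 0.35 for endothelial (0.0182), 0.44 for mural (0.0438), 0.18 for astrocyte (0.0438) and 0.24 for hippocampal neuron markers (0.0376). In the hippocampus of PBS rats they were -0.29 for microglial (adjusted exact permutation p = 0.0438), 0.24 for oligodendrocyte (0.0376), 0.34 for hippocampal neuron (0.0182) and -0.18 for cortical neuron markers (0.0438). In the cortex of doxorubicin rats hippocampal neuron markers differed by 0.31 (adjusted exact permutation p = 0.0182). In the hippocampus of doxorubicin rats 0 of the 11 lists had an adjusted p under 0.05. The part of these lists in the genotype differences of the 10 genes and of the further pathway genes was not tested.

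**Figure D4:**
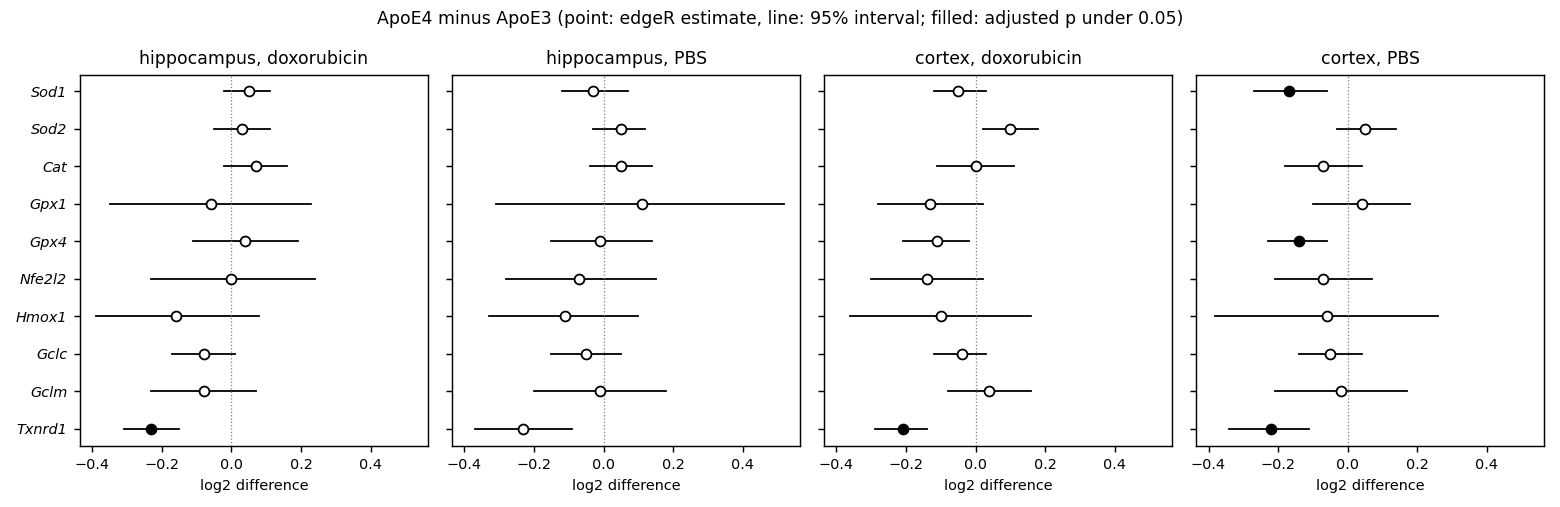
Log2 difference of ApoE4 minus ApoE3 from edgeR for the 10 genes (point) with its 95% interval (line), in 4 panels of 16 libraries each, where a filled point has an adjusted p under 0.05. Txnrd1 lies between -0.23 and -0.21 in all panels and is filled in 3, while Sod1 and Gpx4 are filled in PBS cortex.

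Among the 63 further pathway genes, the genotype calls went in both directions and differed from gene to gene. Aox1, an aldehyde oxidase of the Nrf2 target list, was called higher in ApoE4 rats in all 4 comparisons. It averaged 33.3 ± 6.69 CPM in ApoE4 and 11.8 ± 9.66 CPM in ApoE3 hippocampus of doxorubicin rats, and 31.0 ± 3.57 CPM and 11.5 ± 5.33 CPM in that of PBS rats (SD, n = 8 each). In cortex it averaged 25.9 ± 3.15 CPM in ApoE4 and 11.8 ± 6.65 CPM in ApoE3 doxorubicin rats, and 25.8 ± 1.53 CPM in ApoE4 and 7.16 ± 4.16 CPM in ApoE3 PBS rats. Its log2 differences of 1.49, 1.44, 1.13 and 1.85 had edgeR adjusted p of 0.0286, 0.00118, 0.00103 and 1.44e-07. Msrb1, a methionine sulfoxide reductase that is a selenoprotein like Txnrd1, was called higher in all 4 too, by 0.28, 0.30, 0.46 and 0.36. No gene of the 63 was called lower in all 4, and over all 14431 genes tested in all 4 comparisons 1.04% were called in the same direction in each.

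Other genes of the lists were higher in ApoE4 rats in some comparisons. Nqo1, a quinone reductase widely used as a readout of Nrf2, was called in 3 comparisons, with log2 differences of 0.41 in hippocampus of doxorubicin rats, 0.36 in cortex of doxorubicin rats and 0.41 in cortex of PBS rats (edgeR adjusted p of 0.0117, 0.0156 and 0.00696). In hippocampus of PBS rats Nqo1 had a difference of 0.35 (SE 0.12, adjusted p = 0.143). Prdx1, a cytosolic peroxiredoxin, was called in 3 comparisons, by 0.26 and 0.26 in hippocampus of doxorubicin and PBS rats and by 0.17 in cortex of doxorubicin rats. Nfe2l1, the factor related to Nfe2l2 that controls proteasome genes, was called higher in 3, by 0.14 in hippocampus of doxorubicin rats, 0.14 in cortex of doxorubicin rats and 0.16 in cortex of PBS rats. Sesn3 was called higher in both cortical comparisons, by 0.31 in doxorubicin rats and 0.42 in PBS rats.

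Calls of lower levels were found in cortex. In PBS rats 9 of 62 tested pathway genes were higher and 10 lower in ApoE4 rats, beside 9.21% higher and 6.98% lower of all genes. The lower ones of smallest p included Sqstm1, the autophagy receptor p62 (-0.26, adjusted p = 0.000368 by edgeR), Park7 (-0.17, adjusted p = 0.00211), the glutaredoxin Glrx3 (-0.22, adjusted p = 0.00743) and Gsta4, a glutathione transferase (-0.42, adjusted p = 0.00821). In doxorubicin rats 7 were higher and 2 lower, beside 7.92% and 6.18% of all genes, the lower ones being Glrx3 (-0.19, adjusted p = 0.00492) and Gpx3 (-0.33, adjusted p = 0.0383). In hippocampus 5 were higher and 0 lower in doxorubicin rats, beside 1.70% and 1.53% of all genes, and 3 were higher and 0 lower in PBS rats, beside 1.43% and 1.40%. Keap1, the repressor of Nrf2, was not called in any of the 4 comparisons.

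The comparison of hippocampus with cortex of the same rats gave Cat as the member that differed in every group. The edgeR fit reported here did not pair the 2 libraries of a rat, and counts with the rat as a block are given at the end. Cat rose in hippocampus relative to cortex in all 4 comparisons, Hmox1 was called higher in 3, and Gclc was called lower in 3. By edgeR 5 of the 10 were called in ApoE4 rats given doxorubicin, 3 in ApoE4 rats given PBS, 3 in ApoE3 rats given doxorubicin and 4 in ApoE3 rats given PBS. The background shares were 50.9%, 49.2%, 50.4% and 49.3% of all genes in that order, so no member count was above the share of all genes. Cell type markers differed between the regions too. The astrocyte score was higher in hippocampus by 0.24, 0.25, 0.31 and 0.37 in the same order, and in ApoE3 rats given PBS it ran from 8.45 to 8.72 in hippocampus and from 8.08 to 8.44 in cortex. The oligodendrocyte score differed by -0.14, -0.24, 0.00 and -0.33 and the microglial one by 0.17, 0.08, 0.12 and 0.30. The choroid plexus score differed by 1.63, 1.91, 1.58 and 2.10 and the meningeal one by 0.04, 0.05, -0.24 and 1.21. The mural score differed by -0.16, -0.16, -0.33 and 0.77 and the endothelial one by -0.25, -0.31, -0.36 and 0.24. The part of these cell types in the regional differences was not tested.

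Cat in ApoE4 rats given doxorubicin ran from 62.8 to 73.0 CPM (median 70.6) in hippocampus and from 47.5 to 60.0 CPM (median 56.9) in cortex. In ApoE4 rats given PBS it ran from 62.3 to 72.9 CPM (median 67.6) in hippocampus and from 47.1 to 57.6 CPM (median 54.1) in cortex. In ApoE3 rats given doxorubicin it ran from 62.4 to 72.2 CPM (median 65.3) in hippocampus and from 47.9 to 61.3 CPM (median 54.9) in cortex. The regions did not overlap in these 3 groups, and the share of all genes without overlap was not counted. In ApoE3 rats given PBS they did overlap, at 58.5 to 69.7 CPM in hippocampus and 50.8 to 62.8 CPM in cortex. In each group 8 of 8 rats had more Cat in their hippocampus. The log2 differences in that order were 0.32 (SE 0.05), 0.32 (SE 0.04), 0.26 (SE 0.05) and 0.19 (SE 0.05), with edgeR adjusted p of 1.79e-05, 4.11e-06, 0.000182 and 0.00221. Over all 14595 genes tested in the 4 comparisons, 32.2% were called in the same direction in each.

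Hmox1 was higher in hippocampus by 0.37 (SE 0.13, adjusted p = 0.0251 by edgeR) in ApoE4 rats given doxorubicin, 0.43 (SE 0.12, adjusted p = 0.00473) in ApoE3 rats given doxorubicin and 0.37 (SE 0.13, adjusted p = 0.0228) in ApoE3 rats given PBS. In ApoE4 rats given PBS it gave 0.31 (SE 0.14, adjusted p = 0.0709). In ApoE3 rats given doxorubicin it ran from 4.98 to 8.18 CPM (median 5.66) in hippocampus and from 3.49 to 5.40 CPM (median 4.45) in cortex, and 8 of 8 rats had more in hippocampus. With the rat as a block the call in ApoE4 rats given doxorubicin ended (adjusted p = 0.0525), and without the libraries with a choroid plexus score over 4 that in ApoE3 rats given PBS ended (adjusted p = 0.109).

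The glutamate-cysteine ligase subunits were lower in hippocampus. Gclc was called at -0.12 (SE 0.04) in ApoE4 rats given doxorubicin, -0.14 (SE 0.05) in ApoE4 rats given PBS and -0.14 (SE 0.04) in ApoE3 rats given PBS, with edgeR adjusted p of 0.0222, 0.0170 and 0.0133, and had -0.08 (SE 0.04, adjusted p = 0.118) in ApoE3 rats given doxorubicin. The first of these calls ended without rat 10's hippocampal library, which stands apart in meningeal markers (adjusted p = 0.0706). Without the libraries over a choroid plexus score of 4 the calls in ApoE4 rats ended (adjusted p = 0.128 with doxorubicin and 0.108 with PBS). Gclm was called at -0.30 (SE 0.07, adjusted p = 0.00159) in ApoE4 and -0.18 (SE 0.06, adjusted p = 0.0120) in ApoE3 rats given doxorubicin. In ApoE4 rats given doxorubicin it ran from 14.0 to 19.6 CPM (median 16.5) in hippocampus and from 17.5 to 23.0 CPM (median 20.4) in cortex, and 0 of 8 rats had more in hippocampus. In PBS rats it gave -0.18 (SE 0.08, adjusted p = 0.0847) in ApoE4 and -0.20 (SE 0.09, adjusted p = 0.0856) in ApoE3 rats, and the ApoE3 value passed with the rat as a block (adjusted p = 0.0343). Without the libraries over 4 both PBS values passed (adjusted p = 0.0375 in ApoE4 and 0.0278 in ApoE3 rats).

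Sod2 was called lower in the hippocampus of ApoE4 rats, by 0.14 (log2 difference -0.14, SE 0.04, adjusted p = 0.00789 by edgeR) with doxorubicin and by 0.10 (-0.10, SE 0.03, adjusted p = 0.0150) with PBS. The PBS call ended with no filter on low counts (adjusted p = 0.0547) and without the libraries over 4 (adjusted p = 0.0564). In ApoE3 rats Sod2 gave -0.07 with doxorubicin and -0.10 with PBS, neither of which passed, and the doxorubicin value passed without the cortical library of rat 72, which stands apart in choroid plexus markers (adjusted p = 0.0336). Gpx1 was called in ApoE3 rats given PBS, at 29.4 to 43.5 CPM (median 40.1) in hippocampus and 27.4 to 35.0 CPM (median 28.7) in cortex (log2 difference 0.34, SE 0.08, adjusted p = 0.00157). Without the libraries over 4 that difference was again 0.34 (adjusted p = 0.00487). In ApoE4 rats given doxorubicin, ApoE4 rats given PBS and ApoE3 rats given doxorubicin the differences were 0.21, 0.41 and 0.16 with all libraries. Without the libraries over 4 they were 0.07, 0.09 and 0.05, and none passed with or without them. In ApoE3 rats given PBS the meningeal score was higher in hippocampus by 1.21, and its part in the Gpx1 difference was not tested. Nfe2l2 in ApoE3 rats given PBS had 0.17 (SE 0.08, adjusted p = 0.0666), which passed with the rat as a block (adjusted p = 0.0398) and by DESeq2 (adjusted p = 0.0459). Sod1, Gpx4 and Txnrd1 were not called between regions in any group.

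**Figure D5:**
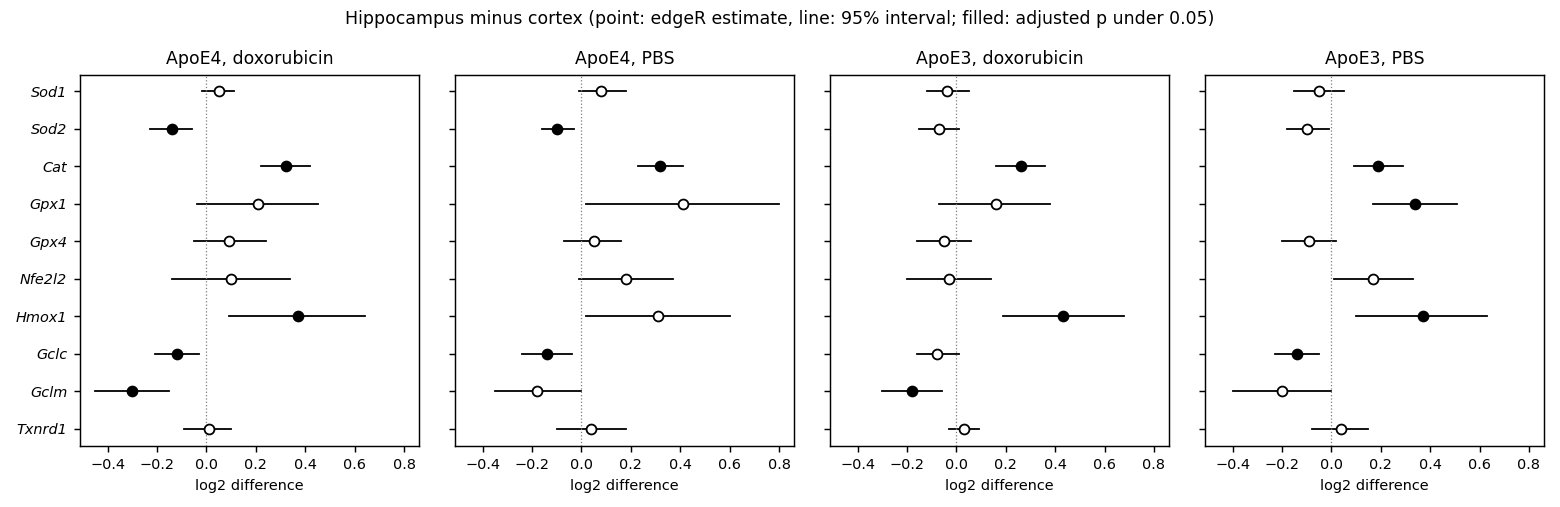
Log2 difference of hippocampus minus cortex from edgeR for the 10 genes (point) with its 95% interval (line), in 4 panels of 16 libraries from 8 rats each, where a filled point has an adjusted p under 0.05. Cat is filled to the right of 0 in all panels, from 0.19 to 0.32, and filled points of Gclc, Gclm and Sod2 lie to the left.

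Of the 63 further genes, 14 were called higher and 7 lower in hippocampus in all 4 groups, beside 32.2% of all genes called in 1 direction in all 4. The higher ones included Osgin1, a stress-responsive growth inhibitor (log2 differences of 1.05 to 1.60), the extracellular dismutase Sod3 (0.92 to 1.29), the epoxide hydrolase Ephx1 (0.62 to 0.84), the methionine sulfoxide reductase Msra (0.56 to 0.71) and the glutathione transferase Gstm1 (0.48 to 0.60). The lower ones included Sesn3 (-0.92 to -0.40), Glrx3 (-0.41 to -0.15), Nfe2l1 (-0.36 to -0.22) and the glutathione transferase Gstp1 (-0.21 to -0.15). Among the partners of Nrf2, Rbx1 of the ligase complex that acts on it was also lower in all 4 (-0.15 to -0.11), and Keap1 was not called in any.

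Between female and male rats 0 of the 10 genes were called in either region by edgeR or DESeq2. DESeq2 called 44 of 15851 genes in hippocampus and 308 of 15759 in cortex, and gave no adjusted p for Hmox1 in cortex. The edgeR background was 0.12% in hippocampus and 0.711% in cortex. At an unadjusted p under 0.05 there were 0 of 10 in hippocampus and 1 (Sod1) in cortex, beside 9.45% and 14.9% of all genes. Each comparison held 16 female and 16 male libraries. Gpx1 in hippocampus averaged 33.7 ± 6.99 CPM in females and 40.1 ± 13.7 CPM in males (SD, n = 16 each), with a log2 difference of -0.25 (SE 0.12, adjusted p = 0.532 by edgeR). Of the 8 hippocampal libraries with a choroid plexus score over 4, 2 came from females and 6 from males, and their part in this difference was not tested. Sod1 in cortex averaged 140 ± 8.53 CPM in females and 147 ± 12.1 CPM in males, with a log2 difference of -0.07 (SE 0.03, unadjusted p = 0.0299, adjusted p = 0.273), and 13 of 16 females lay under the male median. Of the 63 further pathway genes 0 were called in either region. In hippocampus those of smallest p were Selenot (-0.06, adjusted p = 0.430), Sod3 (-0.35, adjusted p = 0.525) and Gstk1 (0.10, adjusted p = 0.533). In cortex they were the glutathione transferase Mgst3 (-0.13, adjusted p = 0.102), thioredoxin Txn1 (-0.11, adjusted p = 0.104) and Glrx3 (-0.11, adjusted p = 0.107).

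The 10 genes also differed in what varied with them from library to library inside a group. As a description, each was set against 12916 other genes by the Pearson correlation of log2 CPM after subtraction of the mean of its group, over 64 libraries. Gpx1 had the closest companions, Slc2a12 (0.87), Sft2d2 (0.86) and Fuca1 (0.86). Nfe2l2 came next with Acadm (0.77), Trim34 (0.77) and Ccdc80 (0.76), and Sod2 with Map2k4 (0.74), Opcml (0.73) and Slc25a46 (0.72). For Txnrd1 the highest were Sgsm3 (0.57), Pnpla6 (0.56) and Ipo13 (0.55), and for Cat they were Ceacam1 (0.53), Kif13a (0.47) and Usp50 (0.46). These libraries share depth and tissue makeup, which such correlations also carry.

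Since each rat gave both regions, the 10 genes could be compared across them within a rat. With the mean of each set of rats of 1 genotype, treatment and sex subtracted, Cat in hippocampus and cortex correlated over 32 rats. Pearson's r was 0.55 and Spearman's rho 0.60. Permutation within those sets gave p, adjusted over the 10 genes, of 0.0685 and 0.0179. Without the 2 rats farthest from the median in hippocampus, r was 0.55. For Sod1 r was 0.49 and rho 0.52 (adjusted permutation p = 0.0685 and 0.0383; r = 0.46 without the 2 farthest rats). For the other 8 genes r ran from -0.28 for Gpx1 to 0.34 for Txnrd1, and no adjusted permutation p was under 0.05. The share of all genes with correlations of this size was not counted, so the values cannot be called particular to these genes.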

How the data were processed

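Per the labels' protocols, total RNA was extracted with a Qiagen RNeasy Plus Universal kit and libraries were made with the NEBNext Ultra II RNA kit. Per the submitters' processing notes, the authors used STAR 2.5.2b and DESeq2. The read counter, genome build and strand setting are not given in the sources used here. The deposited tables hold unmodified read counts per gene and library. The authors' comparison tables, as deposited, hold a log2 fold change of doxorubicin over PBS, a p-value with its adjusted p-value, and a signal per library, which is the count divided by a size factor.

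Groups came from the sample labels, and the replicate is the rat. Spike-in rows were left out. Counts were tested with edgeR 4.0.16 in R 4.3.3: filterByExpr, TMM scaling, the quasi-likelihood F-test, sex as a covariate (the group, where sex was compared) and Benjamini-Hochberg adjustment over all genes tested, with a threshold of 0.05. The SE is the absolute log2 difference over the square root of F. DESeq2 1.42.0 and other settings were alternatives. The fits were tested on simulated data. Log2 CPM used a prior count of 1, and a marker score is the mean log2 CPM of a list. Both regions come from the same rats, as the labels say. Over 14311 genes the deviations of a rat's 2 libraries correlated at -0.08 to 0.37 (median 0.22), over 0.1 in 27 of 32 rats, and the rat was a block in an alternative fit. The 10 genes are named in every comparison. Of 3 further pathway lists, genes that pass are counted and up to 8 per direction named, and where none passes, the 3 of smallest p. The members and lists were chosen with earlier results of these data known. No per-sample column was left unused.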

Additional observations from a re-analysis of the deposited data

Results flagged for a closer look

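Dixon's test sets the gap of a library to its nearest neighbour against the range of its set. Its 95% critical value is passed by about 1 in 20 independent sets of normal values. Of 80 sets of 8 libraries, 1 for each of the 10 genes in each group, 10 held a library whose gap passed it. In hippocampus these were Sod1 in ApoE3 rats given PBS (rat 58, 163 CPM, next 148), Gpx1 in ApoE4 rats given doxorubicin (rat 10, 55.8 CPM, next 33.3), Gpx4 in ApoE4 rats given doxorubicin (rat 31, 91.9 CPM, next 70.9), Gpx4 in ApoE4 rats given PBS (rat 7, 83.1 CPM, next 69.6), Txnrd1 in ApoE4 rats given PBS (rat 4, 88.2 CPM, next 66.5) and, on the low side, Txnrd1 in ApoE3 rats given doxorubicin (rat 51, 78.3 CPM, next 80.9). In cortex they were Gpx1 in ApoE3 rats given PBS (rat 58, 35.0 CPM, next 30.7), Hmox1 in ApoE4 rats given PBS (rat 24, 6.21 CPM, next 4.58), Gclm in ApoE3 rats given PBS (rat 61, 27.6 CPM, next 21.5) and, on the low side, Sod2 in ApoE3 rats given doxorubicin (rat 72, 143 CPM, next 159). The libraries of rats 10, 7 and 51 in hippocampus and of rats 58 and 72 in cortex had choroid plexus scores of 6.24, 8.78, 7.62, 4.46 and 4.37, while the hippocampal libraries of rats 58, 4 and 31 had scores of 0.25, -0.19 and 2.40 and the cortical ones of rats 24 and 61 scores of 0.35 and -0.42. The part of these markers in the values was not tested. The 10 sets of a group share their 8 libraries, and the share over all genes was not counted. The count of 10 in 80 can therefore not be read as a trait of these genes.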

How the results depend on the processing

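Called members were counted 120 times under an alternative setting. The settings were DESeq2, RLE size factors, no filter on low counts and no sex covariate. Others left libraries out, took all 32 libraries of a region or took the rat as a block. Of the 120 counts 118 stayed within 1.5 times the reported count, a rule that takes 6 against 4 as unchanged. All 70 counts of doxorubicin, interactions and sex were 0 and stayed 0. In most of those comparisons the reported fit called no gene at all, so these 70 say little. The 2 of the 120 that moved were the genotype count in hippocampus of PBS rats, 0 as reported and 1 (Txnrd1) both by DESeq2 and with 32 libraries. Leaving out 1 library at a time, chosen after the data were seen, gave 0 to 1 called members in hippocampus of PBS rats (1 without ApoE4 rat 4), 1 each time in hippocampus of doxorubicin rats, 2 to 3 in cortex of PBS rats and 1 to 2 in cortex of doxorubicin rats (2 without ApoE3 rat 66). Txnrd1 then ran from -0.29 to -0.20, -0.25 to -0.21, -0.25 to -0.19 and -0.22 to -0.19 in the same order, Gpx4 in PBS cortex from -0.16 to -0.13 and Sod1 there from -0.19 to -0.14. With the rat as a replicate block, the region comparison called 4 members in ApoE4 doxorubicin, 3 in ApoE4 PBS, 3 in ApoE3 doxorubicin and 6 in ApoE3 PBS rats, against 5, 3, 3 and 4 without it, and the region by treatment tests called 0 and 0. It changed no call other than those of Hmox1, Nfe2l2 and Gclm given above.

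Of 1200 gene values under an alternative, 37 changed sign, none past the threshold; the cause was not tested. Under doxorubicin, Gpx4 in ApoE3 hippocampus was 0.00096 with DESeq2 and 0.00024 with RLE. Hmox1 in ApoE4 hippocampus was -0.047 without the libraries that stand apart and -0.12 without those with a choroid plexus score over 4. In ApoE3 cortex, both left Nfe2l2 at -0.062 and Hmox1 at -0.065, and without the sex covariate Hmox1 was -0.00057. For the genotype by treatment term in hippocampus Txnrd1 was 0.0015 with DESeq2, 0.0016 with RLE, 0.00035 with no filter and 0.023 without the libraries apart. Without those libraries Sod2 was 0.00038 and Nfe2l2 -0.036 there, and in cortex Nfe2l2 was 0.0027 and Hmox1 0.036. For the region by treatment term in ApoE3 rats Txnrd1 was 0.009 with no filter and 0.0078 without the libraries apart, which put Sod2 at -0.0066. In ApoE4 rats they put Hmox1 at -0.0012 and Txnrd1 at 0.0024. Between regions Nfe2l2 was 0.0074 without the libraries apart in ApoE3 doxorubicin rats and, without those over 4, -0.011 in ApoE4 doxorubicin rats, and Gpx4 in ApoE4 PBS rats was -0.018 without those over 4. Between genotypes Nfe2l2 in hippocampus of doxorubicin rats was -0.097 without the libraries apart, and Cat in cortex of doxorubicin rats was 0.00058 with DESeq2, 5e-04 with RLE and 0.0059 with no filter. Between sexes Gclc in hippocampus was -0.00014 with no filter and -0.0061 without the libraries apart, and Gclm 0.017 without them. In cortex Sod2 was 0.0021 with DESeq2, 0.0018 with RLE, 0.0026 with no filter and 0.0081 without the libraries apart, and Gpx1 -0.022 without them. Depth limits Hmox1 most, at 32 to 122 reads per library.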
